A study of Mus musculus with 15 samples.

Results

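Left ventricles of mice with a constricted aorta that received neuregulin-1 (NRG1) were compared with left ventricles of sham-operated mice that received saline, with 5 libraries in each group and 10 of the series' 15 libraries in all. The groups are those the sample titles name, and no measured value chose them. All mice were male C57BL/6NRj, and frozen ventricle was profiled by BRB-seq, a method in which samples are barcoded early, pooled and read at the 3′ end of transcripts. The treated group had transverse aortic constriction (TAC), which narrows the aortic arch, and a minipump with NRG1 (TAC NRG1). The reference group had sham surgery and a minipump with saline (sham saline), and the remaining 5 libraries of the series came from TAC with saline (TAC saline). No sham group with NRG1 is part of the series, so constriction and infusion differ together between TAC NRG1 and sham saline and cannot be told apart in that comparison. TAC saline is given beside part of the results as a further reference, with the test of TAC NRG1 against TAC saline where a difference between those groups is stated. The sources used here give no age, dose or length of infusion. The labels do not say that each library came from its own mouse, so a p-value measures only spread between libraries, which may be technical.

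Constriction of the aorta raises the pressure that the left ventricle works against. Cardiomyocytes respond with growth and with renewed expression of genes of the fetal ventricle, and fibroblasts lay down collagen. NRG1 is a growth factor that is made in the heart mainly by endothelial cells and binds the receptor ERBB4, with ERBB3 as a second receptor, while ERBB2 binds no ligand and pairs with either. In cardiomyocytes these receptors activate the ERK and AKT kinase pathways, and NRG1 given to animals with failing hearts is known for effects on growth, contraction and survival.

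Levels are in CPM, the read count scaled to a common library size as the authors scaled it, and a library with no read of a gene is listed at what 0.5 read is worth. Changes are log2 fold changes of TAC NRG1 over sham saline with their standard error (SE) from limma. A gene "rose" or "fell" where its adjusted p was under 0.05 over all 11018 genes tested. Library totals were 2.02 to 5.62 M reads. TAC NRG1 libraries 4 and 5 stood apart from the other libraries of their group. They were the shallowest of the 15, at 2.02 and 2.13 M reads, and haemoglobin genes took 0.366% and 0.350% of their reads, against 0.189% to 0.222% in TAC NRG1 libraries 1 to 3 and 0.0888% to 0.221% in sham saline. Counts are therefore also given without those libraries where that moved them most, a setting chosen after the data were seen. The share of reads from mitochondrially encoded genes was 31.1% ± 0.47 in sham saline and 25.8% ± 2.35 in TAC NRG1 (SD, n = 5 per group), with no overlap (exact two-sided permutation p = 0.0079, the smallest this number of libraries can give, adjusted p = 0.0318 over 8 comparisons).

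The libraries held the cell types of a ventricle. All 10 cardiomyocyte markers were tested, with summed levels of 73350 to 79140 CPM in sham saline and 66450 to 80760 CPM in TAC NRG1, so the sums overlapped, while 5 of the 10 fell, among them Myh6 and Ryr2, and 1, Actc1, rose, with a median log2 fold change of -0.31. The 60% that passed stood against 16.1% of all genes and 35.0% of genes with a mean of at least 100 CPM. The part of these markers in the results that follow was not tested. The atrial myosin light chain Myl7 was too low to test. Endothelial markers summed to 1581 to 1651 CPM and 1436 to 1634 CPM in the same order, and fibroblast markers to 1948 to 2131 CPM and 1917 to 2197 CPM. None of the lymphocyte or adipocyte markers in the files reached the level for testing (sums of at most 6.25 and 5.81 CPM in any library of the 2 groups). In whole tissue, more cells of a type and more RNA per cell cannot be told apart.

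Across all genes tested, TAC NRG1 libraries lay farther from sham libraries on average than sham libraries lay from each other. For 1 of them the margin was slight, and it was wider once genes of low level were left out. Distance between libraries was taken as the root mean square log2 difference over the 11018 genes. TAC NRG1 libraries 1 to 5 lay at a mean distance of 0.557, 0.489, 0.667, 0.663 and 0.642 from the 5 sham libraries, and each sham library lay at 0.426 to 0.479 from the other sham libraries. The library nearest to sham was TAC NRG1 2, the deepest of the 15, and libraries 3, 4 and 5 were the farthest. Over all genes TAC NRG1 2 lay barely beyond the sham libraries. Over genes with a mean of at least 50 CPM it lay at 0.353, against 0.203 to 0.251 for sham libraries. With all libraries thinned to 2.02 M reads it lay at 0.602, against 0.550 to 0.573. Over all genes at full depth, the mean between-group distance of 0.604 exceeded the mean within-group distance of 0.482 by 0.121 (exact permutation p = 0.0079, again the smallest possible). TAC saline libraries lay at 0.493 to 0.625 from sham, with a mean of 0.555 ± 0.060 against 0.604 ± 0.078 in TAC NRG1 (SD, n = 5 each). That difference of 0.049 was within the spread of the libraries (exact two-sided permutation p = 0.302), so the data do not place treated constricted hearts closer to sham or farther from it than untreated constricted hearts. Distance also carries sampling noise, and with all libraries thinned to 2.02 M reads the difference was 0.040 (exact permutation p = 0.238).

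**Figure D1:**
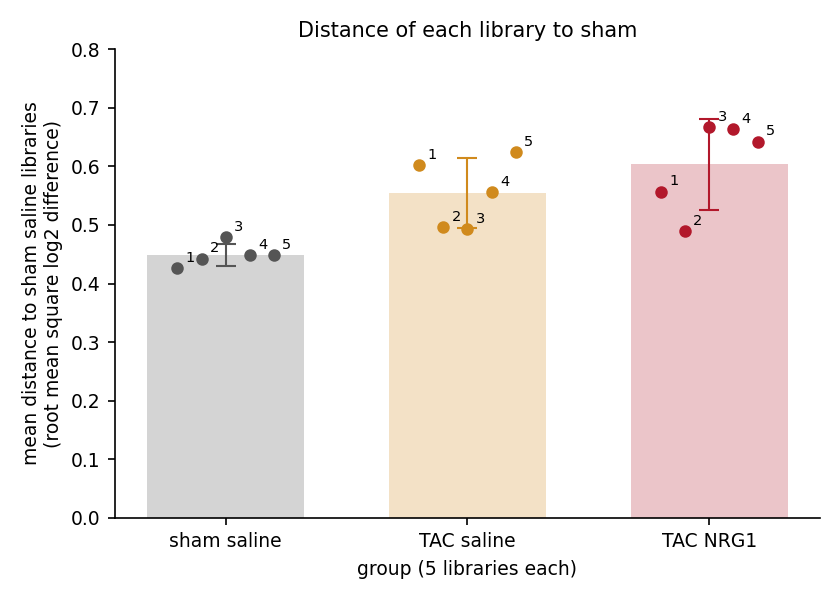
Mean distance of each library to the 5 sham saline libraries (root mean square log2 difference over 11018 genes, vertical axis, from 0) for the 3 groups; points are libraries, numbered by replicate, and the bar is the group mean with the SD of 5 libraries. TAC NRG1 libraries span 0.489 to 0.667, TAC saline libraries 0.493 to 0.625, and sham libraries, each measured against the other 4, 0.426 to 0.479.

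Of 11018 genes, 1777 passed (16.1%), 963 higher (8.74%) and 814 lower (7.39%) in TAC NRG1. Without TAC NRG1 libraries 4 and 5 the count was 1361, of which 1174 were among the 1777. The split depends on the scaling: scaled by total reads alone, 1798 genes passed, 1364 higher and 434 lower, so the higher share was 75.9%, where the authors' scaling gave 54.2%. The median over all genes shifted up by 0.09 (log2). All 963 genes called higher on the authors' scaling were also called higher with total reads, and 434 of the 814 called lower were also called lower. Most changes were small. The median size was 0.63 on the log2 scale for genes that rose and 0.52 for genes that fell, and changes over 2-fold numbered 237 higher and 85 lower. Beyond 4-fold there were 38 higher and 6 lower. The 5 and 5 libraries did not overlap for 1286 genes (11.7%), 686 higher and 600 lower. The share of genes that passed followed their level: 35.0% of genes with a mean of at least 100 CPM passed, 17.2% between 10 and 100 CPM, and 8.89% under 10 CPM, where the median SE was 0.26 against 0.086 in the highest class.

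**Figure D2:**
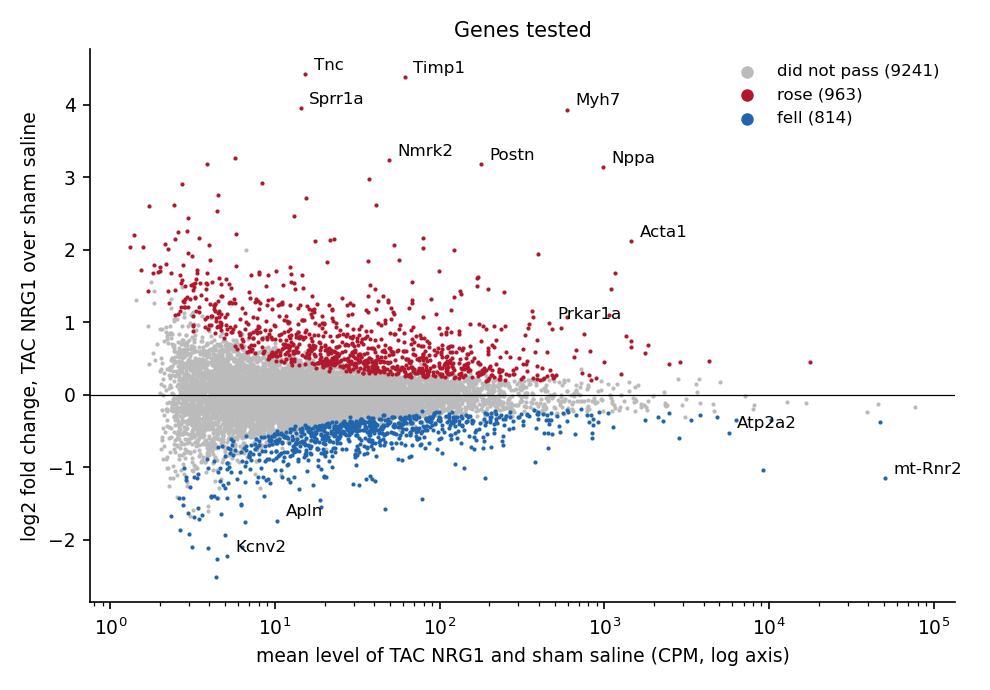
Log2 fold change of TAC NRG1 over sham saline (vertical axis) against mean level in the 2 groups (CPM, log axis) for 11018 genes; red and blue points rose (963) and fell (814), grey points did not pass, and a few of the most changed genes are named. The largest changes are upward, with Tnc, Timp1 and Myh7 at the top and Kcnv2 and Apln among the lowest.

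The genes that rose most were stress genes of cardiomyocytes and genes of the scar matrix. By log2 fold change, leaving out predicted genes and those under 5 CPM in both groups, the 10 most raised were Tnc (4.42), Timp1 (4.38), Sprr1a (3.96), Myh7 (3.93), Cthrc1 (3.26), Nmrk2 (3.24), Col12a1 (3.18), Postn (3.18), Nppa (3.14) and Thbs4 (2.98). Among the 10 most lowered were Kcnv2 (-2.23), Rtn4r (-2.11), Myoc (-2.11), Inmt (-2.09), Cdh4 (-1.94), Klhl33 (-1.75), Apln (-1.74), Dcaf12l1 (-1.72) and Adra1a (-1.64). All of these had libraries that did not overlap between the groups, which the rule that chose them required. Several were near the floor in one group, as for Tnc with 6, 4, 3, 2 and 1 reads in sham saline libraries 1 to 5. Adra1a, which encodes the alpha-1A adrenergic receptor, was the least firm of them: it had 3.73, 2.87, 3.95, 3.48 and 0.221 CPM in TAC NRG1 libraries 1 to 5, its adjusted p was 0.0467, and it lost its call when any 1 of 6 libraries was left out (adjusted p up to 0.113). Cdh4, a cadherin, also had no read in TAC NRG1 5, and without that library its change was -1.17 (adjusted p = 0.00393). Of the most raised genes, Tnc, Sprr1a, Cthrc1 and Col12a1 were under the 2.95 CPM needed for testing in every sham library. They entered only through the constricted groups, which favours genes that are high there.

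Sequence just upstream of a start site is shown for 4 stress genes of cardiomyocytes, since Acta1, Nppa, Nppb and Myh7 rose together here and their promoters are textbook targets of load-responsive factors. The windows run from 250 bases before to 50 after the RefSeq start on GRCm38.p6, 5′ to 3′ on the gene's strand. Capitals mark matches on either strand to the MCAT motif (CATTCC, bound by TEAD factors), the GATA motif (AGATAA) and the CArG box (bound by SRF). They also mark the TATA box, which was searched on the gene's strand only. Acta1 is at chr8:123894726-123895025 on the minus strand, Nppa at chr4:148000472-148000771 on the plus strand, Nppb at chr4:147985650-147985949 on the plus strand, and Myh7 at chr14:54994577-54994876 on the minus strand, the first of 2 starts listed for that gene.
Acta1: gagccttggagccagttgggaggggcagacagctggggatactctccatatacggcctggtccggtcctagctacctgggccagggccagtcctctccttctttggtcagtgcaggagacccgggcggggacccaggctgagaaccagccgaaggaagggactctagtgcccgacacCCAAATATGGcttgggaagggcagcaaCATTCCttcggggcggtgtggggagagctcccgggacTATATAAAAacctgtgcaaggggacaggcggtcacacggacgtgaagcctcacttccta
Nppa: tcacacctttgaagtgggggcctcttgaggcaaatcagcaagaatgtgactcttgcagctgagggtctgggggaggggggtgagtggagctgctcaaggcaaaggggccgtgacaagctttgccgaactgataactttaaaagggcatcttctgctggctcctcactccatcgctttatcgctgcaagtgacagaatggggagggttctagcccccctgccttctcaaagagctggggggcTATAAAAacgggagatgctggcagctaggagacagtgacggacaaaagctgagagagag
Nppb: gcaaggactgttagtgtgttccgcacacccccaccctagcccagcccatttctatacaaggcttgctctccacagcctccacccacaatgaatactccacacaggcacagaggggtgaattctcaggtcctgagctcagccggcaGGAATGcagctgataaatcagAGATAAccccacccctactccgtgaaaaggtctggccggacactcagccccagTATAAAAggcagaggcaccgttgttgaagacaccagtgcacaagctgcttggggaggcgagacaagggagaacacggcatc
Myh7: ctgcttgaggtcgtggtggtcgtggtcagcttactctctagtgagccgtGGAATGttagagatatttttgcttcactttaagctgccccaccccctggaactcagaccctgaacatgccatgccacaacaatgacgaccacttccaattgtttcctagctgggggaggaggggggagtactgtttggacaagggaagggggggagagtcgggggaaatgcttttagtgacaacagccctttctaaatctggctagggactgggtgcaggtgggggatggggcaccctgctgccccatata
The window of Acta1 held a CArG box at 178 to 187, an MCAT motif at 205 to 210 and overlapping TATA boxes from 242, counted from the window's first base. Nppb held an MCAT motif at 146 to 151, a GATA motif at 167 to 172 and a TATA box at 220 to 226, Nppa a TATA box at 242 to 248, and Myh7 an MCAT motif at 50 to 55. Only the letters AGATAA were searched for GATA, so TGATAA, present in the Nppa and Nppb windows, is not marked. The AP-1 motif (TGANTCA) and the MEF2 site were searched too and had no match in the 4 windows. Of 32851 RefSeq promoters of the same length, 14.7% held the MCAT motif, 11.2% the GATA motif, 7.81% the AP-1 motif, 1.63% the CArG box, 3.19% the MEF2 site and 8.59% the TATA box.

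Genes of the fetal ventricle and of cardiomyocyte stress rose nearly without exception. Of 20 tested members 18 rose and none fell, also without TAC NRG1 libraries 4 and 5, and the list's median log2 fold change was 1.02 against -0.01 over all genes. The 90% that passed stood against 16.1% of all genes. Nppa, which encodes atrial natriuretic peptide, a hormone that lowers blood volume and pressure, stood at 228, 182, 214, 183 and 176 CPM in sham saline libraries 1 to 5 and at 1444, 1490, 1464, 1917 and 2547 CPM in TAC NRG1 libraries 1 to 5. Every treated library lay far above every sham library, and libraries 4 and 5 were the highest. Nppa rose by 3.14 ± 0.17 (8.82-fold, adjusted p = 4.26e-12), with TAC saline at 435 to 874 CPM, between the groups and overlapping neither. Myh7, the slow myosin heavy chain of the fetal ventricle, had 90.8, 43.9, 58.5, 57.5 and 76.4 CPM in sham saline and 576, 986, 849.8, 717 and 2478 CPM in TAC NRG1. The treated libraries were spread widely, with library 5 far above the others, but none came near the sham range. Myh7 rose by 3.93 ± 0.27 (15.3-fold, adjusted p = 4.86e-10), and TAC saline was at 133 to 315 CPM. For both genes TAC NRG1 also exceeded TAC saline, by 1.45 ± 0.17 for Nppa (adjusted p = 2.04e-05) and 2.24 ± 0.27 for Myh7 (adjusted p = 2.45e-05).

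Acta1, skeletal muscle actin, had 388, 651, 375, 860.0 and 551 CPM in sham saline and 2473, 2120, 2522, 2402 and 2183 CPM in TAC NRG1. Its treated libraries were tightly grouped, and TAC saline covered them at 1845 to 4064 CPM. Acta1 rose by 2.12 ± 0.20 (adjusted p = 1.23e-07) against sham and differed by -0.18 ± 0.20 from TAC saline (adjusted p = 0.712). The brain natriuretic peptide gene Nppb had 919, 383, 413, 598 and 704 CPM in sham saline and 1588, 1576, 1522, 1259 and 2048 CPM in TAC NRG1, a rise of 1.46 ± 0.20 (adjusted p = 1.53e-05). Sham saline 1 was the highest sham library for Nppb and still lay below every treated library. Ankrd1, a stretch-responsive protein of the sarcomere and nucleus, had 549, 613, 574, 619 and 413 CPM in sham saline and 1685, 1633, 2060, 1520 and 1985 CPM in TAC NRG1. It rose by 1.69 ± 0.13 (adjusted p = 6.53e-09) and was 0.59 ± 0.13 above TAC saline (adjusted p = 0.0221). Nmrk2, a kinase that makes the NAD precursor nicotinamide mononucleotide from nicotinamide riboside, had 7.89, 8.84, 10.7, 6.56 and 7.63 CPM in sham saline and 56.8, 33.8, 184, 93.1 and 84.6 CPM in TAC NRG1. Its rise was 3.24 ± 0.40 (adjusted p = 4.32e-06). Further risers were Fhl1, a LIM protein of the sarcomere (1.61 ± 0.21), Rcan1, a calcineurin inhibitor that calcineurin induces (1.43 ± 0.19), Flnc, a filamin of the Z-disc (0.95 ± 0.14), and Des, the muscle intermediate filament desmin (0.68 ± 0.09). The members that did not pass were Myl4, an atrial light chain (0.21 ± 0.35, adjusted p = 0.745), and Lmcd1, a LIM protein (-0.06 ± 0.11, adjusted p = 0.777).

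**Figure D3:**
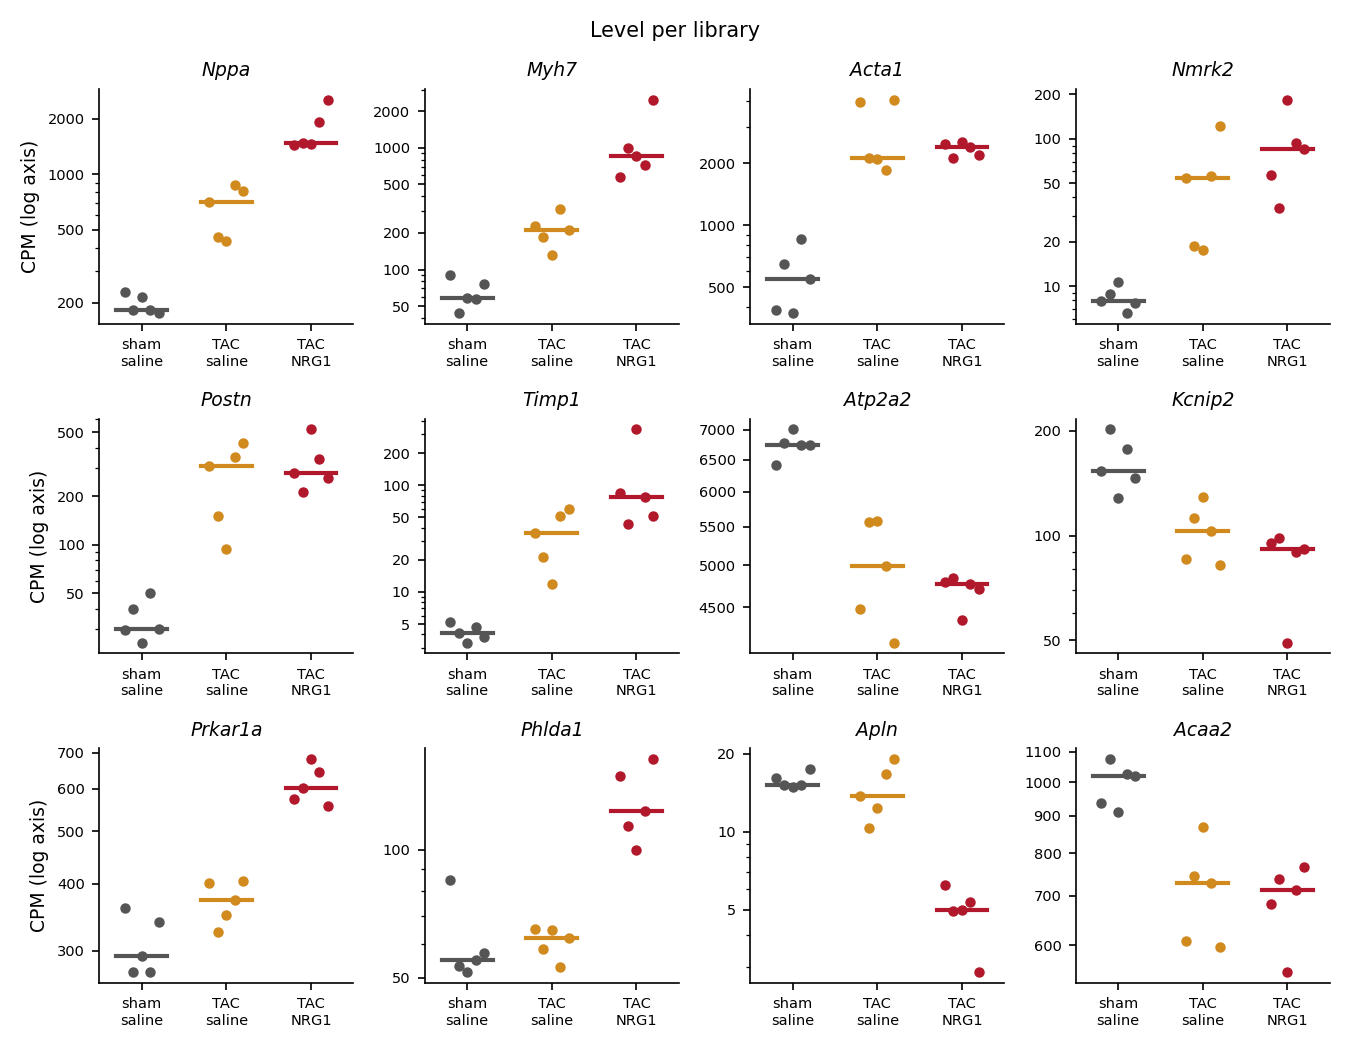
Level in each library (CPM, log axis) of 12 genes in sham saline, TAC saline and TAC NRG1, 5 libraries each; the short line is the median. TAC NRG1 libraries lie apart from sham saline for all 12 genes, and apart from TAC saline as well for Nppa, Myh7, Prkar1a, Phlda1 and Apln.

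The adult contractile and calcium handling genes moved in both directions, with 3 of 24 tested members higher (6 with total reads), 7 lower and a median of -0.10. That is 41.7% passing, against 16.1% of all genes and 35.0% of genes with a mean of at least 100 CPM. Atp2a2, which pumps calcium back into the sarcoplasmic reticulum, had 6416, 6781, 7011, 6735 and 6740 CPM in sham saline and 4794, 4835, 4364, 4771 and 4713 CPM in TAC NRG1. The groups were far apart relative to their narrow spread, and the gene fell by 0.52 ± 0.09 (adjusted p = 0.000189). Ryr2, the calcium release channel, fell by 0.51 ± 0.09 (adjusted p = 0.000345), from 562, 568, 808, 647 and 596 CPM to 399.5, 434, 514, 449 and 417 CPM, and Hrc, a calcium-binding protein of the sarcoplasmic reticulum, fell by 0.71 ± 0.13 (adjusted p = 0.000484). Slc8a1, the sodium-calcium exchanger that carries calcium out of the cell, rose by 0.64 ± 0.10 (adjusted p = 8.91e-05), from 156, 132, 177, 131 and 165 CPM to 205, 218, 307, 228 and 233 CPM. Myh6, the fast myosin heavy chain of the adult mouse ventricle, fell by 0.35 ± 0.09 (adjusted p = 0.00984), from 7477, 6851, 6623, 6946 and 7238 CPM in sham saline to 5551, 6424, 4771, 5562 and 5368 CPM in TAC NRG1. On the log2 scale the change in Myh6 was small beside that in Myh7. In CPM it was not, with means of 7027 in sham saline and 5535 in TAC NRG1 for Myh6, and 65.45 and 1121 for Myh7. Actc1, cardiac actin, and Tnnc1, cardiac troponin C, rose by 0.45 ± 0.10 and 0.47 ± 0.09 (adjusted p = 0.00366 and 0.00102).

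Ion channel genes were shifted downward. Of 21 tested members 8 fell and 2 rose, with a median of -0.51 and 47.6% passing against 16.1% of all genes. Kcnv2, a silent subunit that modifies potassium channels, had 7.0, 7.25, 11.3, 10.2 and 6.13 CPM in sham saline and 0.968, 2.87, 1.40, 2.09 and 1.99 CPM in TAC NRG1, with no overlap, and fell by 2.23 ± 0.34 (adjusted p = 6.28e-05). Kcnip2, the accessory subunit of the transient outward potassium current, fell by 0.95 ± 0.16 (adjusted p = 0.000142), from 154, 202, 128, 178 and 146 CPM to 95.2, 98.4, 49.3, 89.9 and 91.7 CPM, and Kcnd2, a pore subunit of that current, fell by 0.82 ± 0.19 (adjusted p = 0.00406). Kcnj3, a subunit of the channel that acetylcholine opens, fell by 0.76 ± 0.15 (adjusted p = 0.00112), and Hcn2, a pacemaker channel, by 0.76 ± 0.20 (adjusted p = 0.0116). One of the members that rose was Gja1, connexin 43 (0.21 ± 0.07, adjusted p = 0.0484), whose call was lost when any 1 of 7 libraries was left out (adjusted p up to 0.149).

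Among genes of adrenergic signalling and calcineurin 2 of 23 rose and 2 fell, with a median of -0.02 (1 and 0 without TAC NRG1 libraries 4 and 5, 4 and 0 with total reads). The 17.4% that passed is near the 16.1% of all genes. Prkar1a, a regulatory subunit that holds protein kinase A inactive until cyclic AMP binds, had 360.1, 274, 294, 274 and 339 CPM in sham saline, 325 to 405 CPM in TAC saline and 574, 603, 682, 643 and 557 CPM in TAC NRG1. The treated libraries lay above all 10 others. Prkar1a rose by 0.99 ± 0.09 against sham (adjusted p = 4.2e-08) and by 0.72 ± 0.09 against TAC saline (adjusted p = 2.45e-05). The catalytic subunit Prkaca rose by 0.33 ± 0.10 (adjusted p = 0.0219), which did not hold without sham saline 3 or TAC NRG1 5 (adjusted p up to 0.064). The beta-1 receptor Adrb1 did not pass (-0.06 ± 0.15, adjusted p = 0.848).

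No gene of the receptors that NRG1 acts on passed the test. Erbb2 had 5.45, 6.73, 6.54, 6.56 and 7.33 CPM in sham saline and 7.88, 6.52, 8.53, 5.34 and 3.31 CPM in TAC NRG1 (-0.11 ± 0.23, adjusted p = 0.795), Erbb3 differed by 0.31 ± 0.18 (adjusted p = 0.288) and Erbb4 by -0.47 ± 0.38 (adjusted p = 0.451). Transcripts of Nrg1 itself were too low to test. Of 19 tested genes of ERBB receptors, ligands and ERK feedback 3 rose and 1 fell (5 and 1 without TAC NRG1 libraries 4 and 5, 6 and 0 with total reads), with a median of 0.23. That is 21.05% passing, against 16.1% of all genes. Phlda1, a pleckstrin-homology protein induced by growth factors, had 85.05, 53.1, 51.5, 55.1 and 57.3 CPM in sham saline, 53.04 to 65.2 CPM in TAC saline and 149, 114, 99.7, 124 and 164 CPM in TAC NRG1. It rose by 1.11 ± 0.13 (adjusted p = 2.28e-06), and by 1.08 ± 0.13 against TAC saline (adjusted p = 2.45e-05), where sham and TAC saline overlapped. Etv5, an ETS transcription factor that ERK signalling induces, had 5.45, 5.93, 7.82, 7.17 and 7.93 CPM in sham saline and 12.6, 13.7, 15.4, 16.02 and 14.4 CPM in TAC NRG1 and rose by 1.08 ± 0.20 (adjusted p = 0.000383), with 0.78 ± 0.20 against TAC saline (adjusted p = 0.0428). Feedback regulators of the pathway did not pass, with Dusp6, a phosphatase of ERK, at 0.25 ± 0.15 (adjusted p = 0.283) and Spry4, a Sprouty inhibitor, at 0.44 ± 0.21 (adjusted p = 0.17). Of 18 immediate early genes 1 rose (5 without sham saline 5) and 3 fell, 22.2% passing against 16.1% of all genes. Sham saline 5 stood apart for this list, with a median 1.15 (log2) above the sham mean, against -0.438 to 0.00681 in the other sham libraries. Fos stood at 0.06 ± 0.47 (adjusted p = 0.956), and at -0.31 to 0.68 with 1 library left out. The Krüppel-like transcription factors Klf6 and Klf2, the latter a flow-responsive gene of endothelium, fell by 0.53 ± 0.13 and 0.59 ± 0.16 (adjusted p = 0.00619 and 0.0115). Klf2 was at 181 CPM in sham saline 5, against 100 to 121 CPM in the other sham libraries.

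Matrix genes rose nearly throughout. Of 34 tested members of the fibrillar and matricellular list 31 rose and none fell, 30 of them with no overlap, and the median was 1.71. That is 91.2% passing against 16.1% of all genes, and 11.7% of all genes had no overlap. Testing needed 2.95 CPM or more in 5 or more of the 15 libraries. Any member under that level in every sham library entered only through the constricted groups, which favours members that are high there. The count and the median are not free of that selection. Postn, periostin, a matricellular protein of activated fibroblasts, had 29.5, 40.2, 24.7, 50.5 and 30.1 CPM in sham saline and 278, 213, 521, 341 and 260.1 CPM in TAC NRG1 and rose by 3.18 ± 0.29 (9.07-fold, adjusted p = 6.68e-08). Timp1, an inhibitor of matrix metalloproteinases, had 5.23, 4.09, 3.35, 4.73 and 3.74 CPM in sham saline and 85.00, 43.2, 336, 77.3 and 51.9 CPM in TAC NRG1, with library 3 far above the rest, and rose by 4.38 ± 0.40 (adjusted p = 6.68e-08). Col1a1 and Col3a1, the chains of the main fibrillar collagens, rose by 1.99 ± 0.21 and 1.95 ± 0.21 (adjusted p = 4.94e-07 and 6.2e-07). Col3a1 had 163, 164, 116, 166 and 180.0 CPM in sham saline and 572, 434, 1050, 616 and 489.9 CPM in TAC NRG1, again with library 3 highest. Crosslinking enzymes rose as well, Lox by 2.46 ± 0.34 and Loxl2 by 1.77 ± 0.25 (adjusted p = 1.67e-05 and 2.22e-05). Thbs4, a thrombospondin of the stressed heart, had 6.56, 8.57, 6.22, 10.5 and 7.93 CPM in sham saline and 58.2, 36.6, 119.8, 67.1 and 51.9 CPM in TAC NRG1. It was the only one of the 34 to pass against TAC saline too, by 1.16 ± 0.27 (adjusted p = 0.031), while Timp1 was at 1.50 ± 0.40 (adjusted p = 0.0621) and Col1a1 at 0.29 ± 0.21 (adjusted p = 0.536). Ccn1, Thbs2 and Mmp14 did not pass, at -0.15 ± 0.20, -0.14 ± 0.18 and 0.13 ± 0.36 (adjusted p = 0.676, 0.661 and 0.862).

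Of 14 basement membrane genes 5 rose and none fell, with a median of 0.26 and 35.7% passing against 16.1% of all genes. Those that rose were chains of the sheet-forming collagen, Col4a1 (0.83 ± 0.13) and Col4a2 (0.76 ± 0.12), Col15a1 (1.14 ± 0.15) and Col18a1 (1.31 ± 0.22), with adjusted p of 8.91e-05, 8.14e-05, 8.43e-06 and 0.000146, and Hspg2, perlecan (0.36 ± 0.12, adjusted p = 0.0349), which lost its call when any 1 of 5 libraries was left out (adjusted p up to 0.121). In the TGF-beta pathway 10 of 20 rose and 1 fell, with a median of 0.43 and 55% passing against 16.1% of all genes. The fall was of Smad4, the shared signal transducer, and did not hold when any 1 of 7 libraries was left out (-0.44 ± 0.15, adjusted p = 0.048, up to 0.141). Its ligand genes Tgfb2 and Tgfb3 rose by 1.18 ± 0.22 and 1.02 ± 0.22 (adjusted p = 0.00043 and 0.00237). The signal transducers Smad2 and Smad3 did not pass (0.12 ± 0.13 and -0.01 ± 0.17, adjusted p = 0.598 and 0.988). General fibroblast markers were mixed beside the matrix genes. Of 12 markers 6 rose and 2 fell, 66.7% passing against 16.1% of all genes. Among the risers, Lum, a small proteoglycan, rose by 1.32 ± 0.12 (adjusted p = 4.2e-08) and Mfap5, a microfibril protein, by 2.02 ± 0.21 (adjusted p = 3.05e-07). Pdgfra, a defining receptor of fibroblasts, was at 0.06 ± 0.16 (adjusted p = 0.855) and Tcf21, their transcription factor, at 0.35 ± 0.15 (adjusted p = 0.118). The part of fibroblast number in the matrix result was not tested.

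**Figure D4:**
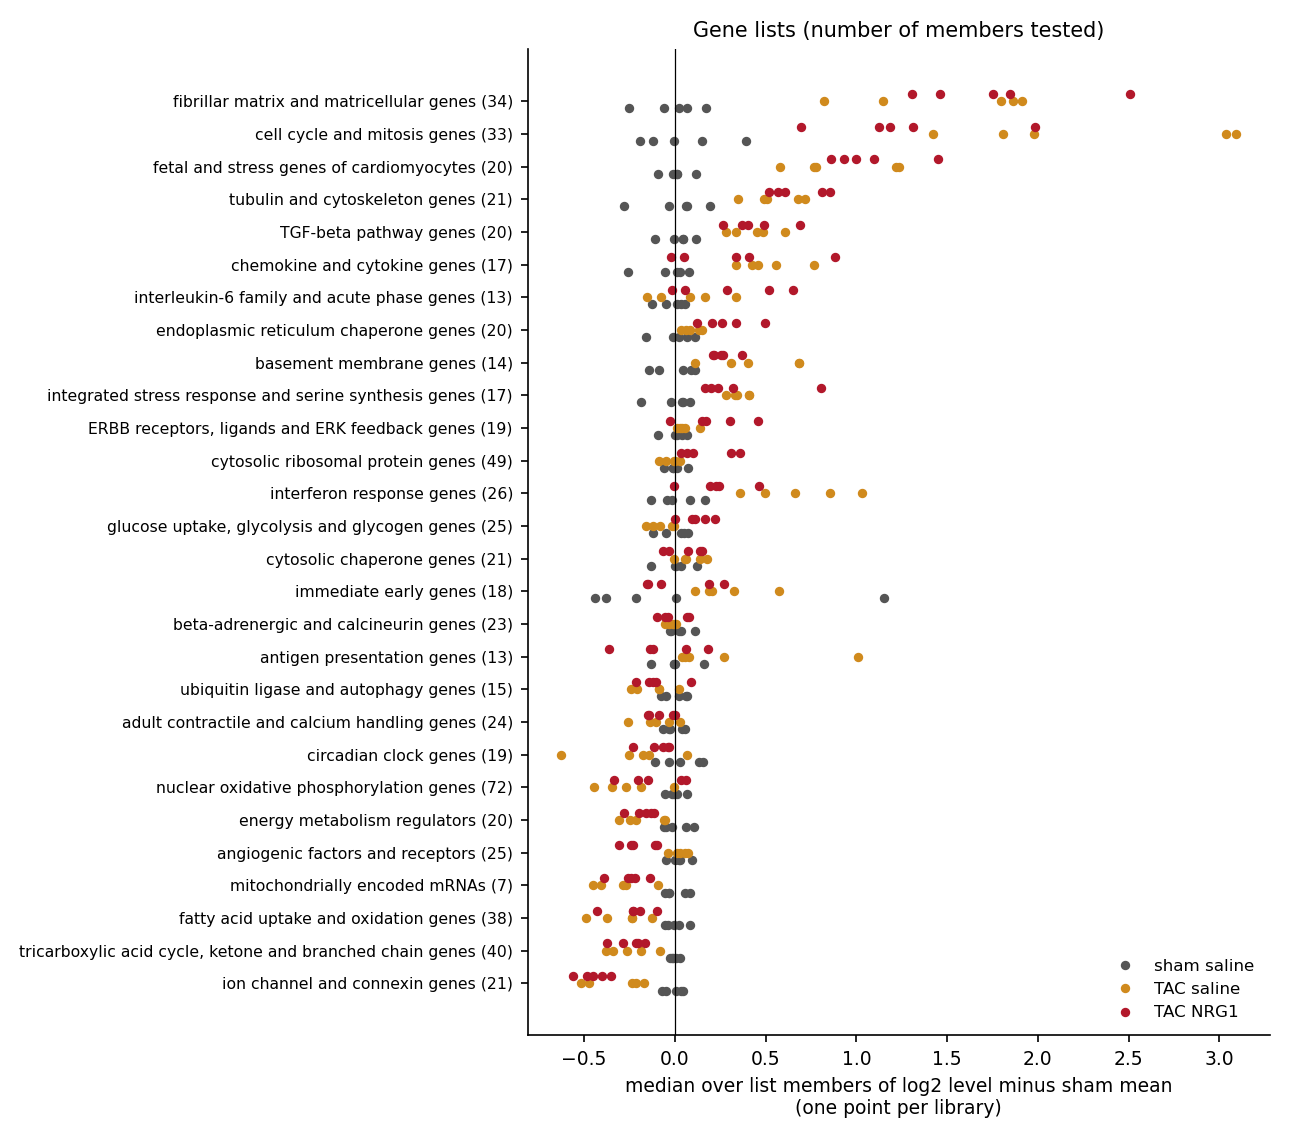
Median over the tested members of each gene list of the log2 level minus the sham saline mean, one point per library (horizontal axis), for sham saline, TAC saline and TAC NRG1; lists are in rows with the number of members tested. Matrix, fetal and tubulin genes lie to the right of sham in all 5 TAC NRG1 libraries.

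Mitotic genes were rare in sham and rose. Of 33 tested members 21 rose, 9 of them without overlap, and 1 fell, with a median of 1.32. That is 66.7% passing against 16.1% of all genes, and 11.7% of all genes had no overlap. A gene was tested with 2.95 CPM or more in 5 or more of the 15 libraries. Members under that level in every sham library, such as Anln, entered only through the constricted groups, which favours members that are high there. The count and the median are not free of that selection. The one that fell, Cenpf, a centromere protein, was at -0.82 ± 0.24 (adjusted p = 0.021) and lost its call without sham saline 3 or TAC NRG1 4. Anln, anillin of the cleavage furrow, had 1.89, 1.19, 0.797, 1.07 and 1.65 CPM in sham saline and 4.28, 3.39, 5.73, 7.66 and 3.76 CPM in TAC NRG1 and rose by 1.92 ± 0.38 (adjusted p = 0.0011). Top2a, the topoisomerase of dividing cells, had 2.78, 1.45, 1.12, 3.81 and 1.05 CPM in sham saline and 5.94, 5.48, 7.77, 2.55 and 5.97 CPM in TAC NRG1, with library 4 inside the sham range, and rose by 1.55 ± 0.40 (adjusted p = 0.00915). These levels are a few reads per library, between 3 and 12 reads of Top2a in sham libraries and between 5 and 31 in treated ones. The count was 10 with voom weights and 13 without TAC NRG1 3. In TAC saline the list's median over sham was 2.19, and 2 members passed as lower in TAC NRG1 than in TAC saline.

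Of 17 tested chemokine and cytokine genes 6 rose and none fell (3 without TAC NRG1 1 or TAC NRG1 4), with a median of 0.39. That is 35.3% passing, against 16.1% of all genes. Ccl2, a chemokine that draws monocytes, had 9.89, 21.8, 10.1, 12.4 and 13.02 CPM in sham saline and 57.1, 22.5, 67.6, 26.7 and 15.2 CPM in TAC NRG1, where libraries 1 and 3 were high and library 5 lay inside the sham range, and rose by 1.33 ± 0.31 (adjusted p = 0.00397). Ccl7, a chemokine of the same receptor, rose by 1.25 ± 0.30 (adjusted p = 0.00478). In the interleukin-6 family and acute phase list 7 of 13 rose and 3 fell (4 and 3 without TAC NRG1 3), with a median of 0.39. The 76.9% that passed stood against 16.1% of all genes. Stat3, the transcription factor of that pathway, had 67.3, 80.05, 80.9, 83.1 and 85.1 CPM in sham saline and 134, 119.8, 146, 126 and 112 CPM in TAC NRG1 and rose by 0.69 ± 0.09 (adjusted p = 8.29e-06), its feedback inhibitor Socs3 by 1.27 ± 0.35 (adjusted p = 0.0156, and 0.057 or 0.0565 without sham saline 3 or TAC NRG1 3), the oncostatin M receptor Osmr by 0.97 ± 0.18 (adjusted p = 0.000575) and the acute phase gene Serpina3n by 2.15 ± 0.41 (adjusted p = 0.000723). Il6ra, the receptor chain that binds interleukin-6, had 9.89, 6.46, 9.41, 7.47 and 9.13 CPM in sham saline, 7.10 to 11.7 CPM in TAC saline and 4.28, 5.83, 4.71, 1.16 and 2.43 CPM in TAC NRG1. It fell by 1.39 ± 0.31 against sham (adjusted p = 0.00283), with -1.52 ± 0.31 against TAC saline (adjusted p = 0.0123).

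Interferon response genes lay near sham. Of 26 tested members 2 rose, Irf9 and Lgals3bp, and none fell, with a median of 0.12 and 7.69% passing against 16.1% of all genes. Neither rise held without sham saline 3 (adjusted p = 0.114 for Irf9 and 0.0708 for Lgals3bp) or without TAC NRG1 1 (0.0679 and 0.0528). Irf9, a subunit of the interferon-activated transcription factor, had 13.9, 13.3, 8.13, 16.6 and 11.5 CPM in sham saline and 19.2, 16.3, 14.7, 18.8 and 20.6 CPM in TAC NRG1 (0.52 ± 0.17, adjusted p = 0.0336). The list's median was 0.78 for TAC saline over sham and -0.48 for TAC NRG1 over TAC saline, with 2 members passing as lower in the latter. Antigen presentation genes had a median of -0.07, and the 1 of 13 that passed, H2-Aa, a class II chain (-0.67 ± 0.23, adjusted p = 0.0443), lost its call when any 1 of 9 libraries was left out. The 7.69% that passed is under the 16.1% of all genes. Macrophage markers summed to 567 to 886 CPM in sham saline and 559 to 1009 CPM in TAC NRG1. Of 18 markers 3 rose (Cd68, Laptm5 and C1qa), 16.7% passing against 16.1% of all genes, with a median of 0.29. Without TAC NRG1 libraries 4 and 5 limma called none of them, with 6 of the 18 at an unadjusted p under 0.05, and without TAC NRG1 3, sham saline 3 or sham saline 5 none either, while 6 rose without TAC NRG1 2. The defining receptor Csf1r was at -0.01 ± 0.15 (adjusted p = 0.977).

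Of 25 genes of vessel growth 32.0% passed, against 16.1% of all genes, with 2 higher, 6 lower (3 lower without TAC NRG1 libraries 4 and 5) and a median of -0.20. Apln, which encodes apelin, a peptide ligand made by sprouting endothelium, had 16.1, 15.2, 14.8, 15.1 and 17.5 CPM in sham saline, 10.4 to 19.1 CPM in TAC saline and 6.22, 4.96, 4.97, 5.34 and 2.87 CPM in TAC NRG1. All treated libraries were under the lowest of the 10 others. Apln fell by 1.74 ± 0.20 against sham (adjusted p = 1.33e-06) and by 1.58 ± 0.20 against TAC saline (adjusted p = 3.05e-05). Nrp2, neuropilin 2, a co-receptor for VEGF and semaphorins, had 25.5, 21.2, 28.9, 21.8 and 24.7 CPM in sham saline, 27.5 to 36.4 CPM in TAC saline and 17.8, 17.1, 14.1, 12.3 and 11.7 CPM in TAC NRG1. It fell by 0.75 ± 0.14 against sham (adjusted p = 0.000395) and by 1.12 ± 0.14 against TAC saline (adjusted p = 2.45e-05). Igf1 rose by 0.83 ± 0.18 (adjusted p = 0.00273), and the VEGF gene Vegfa and its receptor Kdr did not pass (-0.36 ± 0.14 and -0.25 ± 0.10, adjusted p = 0.0804 and 0.102). Endothelial markers had 1 of 20 higher, 3 lower (2 and 1 without TAC NRG1 libraries 4 and 5) and a median of -0.15. The 20% that passed is near the 16.1% of all genes. Aqp1, a water channel of capillaries, had 189, 160.2, 183, 178 and 215 CPM in sham saline and 89.7, 127, 64.1, 79.7 and 112 CPM in TAC NRG1 and fell by 1.00 ± 0.16 (adjusted p = 0.00014), while the junction genes Pecam1 and Cdh5 were at -0.02 ± 0.11 and -0.16 ± 0.09 (adjusted p = 0.915 and 0.266). Of 11 smooth muscle and pericyte markers 4 rose, with Tagln, transgelin, at 1.19 ± 0.19 (adjusted p = 0.000119), and 2 fell, while Myh11, the smooth muscle myosin, was at 0.12 ± 0.23 (adjusted p = 0.795). Among these markers 54.55% passed, against 16.1% of all genes.

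**Figure D5:**
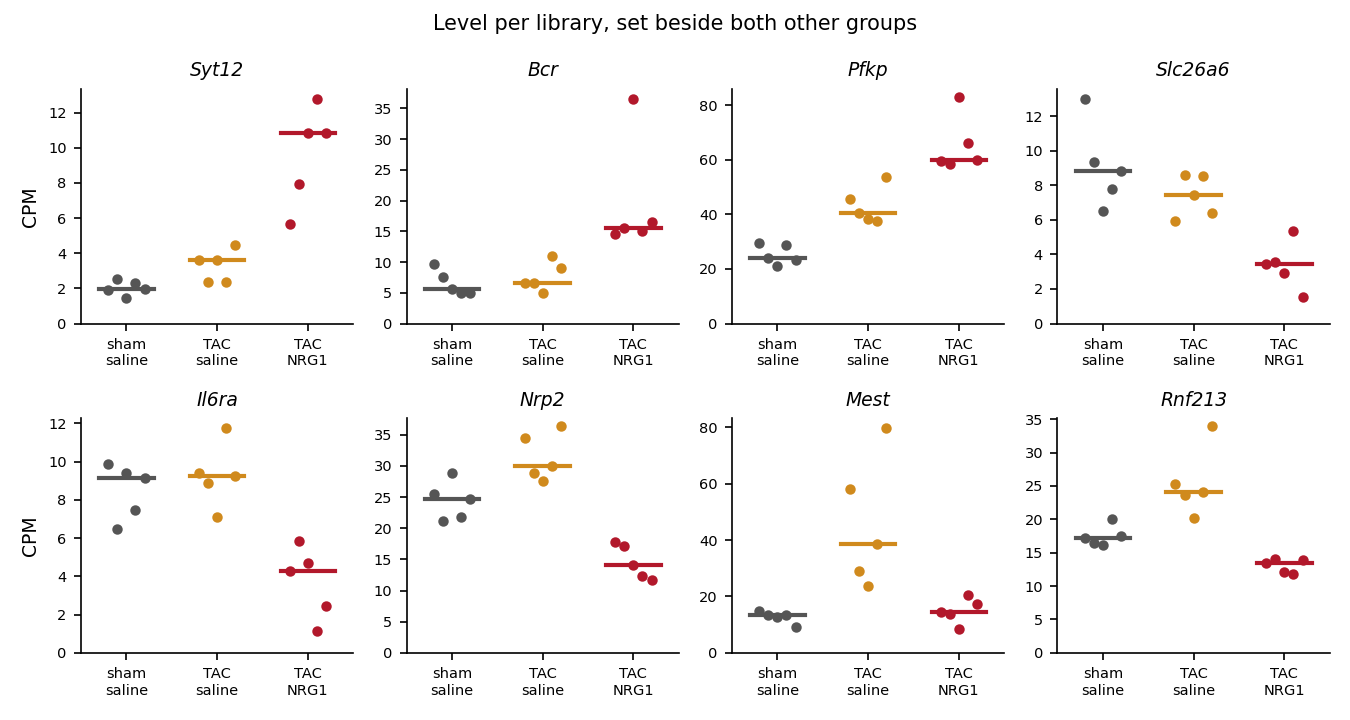
Level in each library (CPM, axis from 0) of 8 genes whose TAC NRG1 level was set beside both other groups, 5 libraries each; the short line is the median. Syt12, Bcr and Pfkp are higher and Slc26a6, Il6ra and Nrp2 lower in TAC NRG1 than in both other groups, while Mest and Rnf213 are highest in TAC saline.

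Genes of fat oxidation were lower, by small amounts. Of 38 tested members 17 fell and none rose, with a median of -0.24, while scaling by total reads alone gave 10 that fell and 1 that rose, with a median of -0.15. On the authors' scaling 44.7% passed, against 16.1% of all genes and 35.0% of genes with a mean of at least 100 CPM. Acaa2, the thiolase of mitochondrial beta-oxidation, had 936, 1076, 910.2, 1025 and 1020 CPM in sham saline and 682, 738, 552, 714 and 766 CPM in TAC NRG1 and fell by 0.53 ± 0.10 (adjusted p = 0.000484). Hadh, the dehydrogenase one step before it, fell by 0.54 ± 0.10 (adjusted p = 0.000754) and Acadm, which starts the oxidation of medium-chain fats, by 0.43 ± 0.09 (adjusted p = 0.00107). The fatty acid transporter Cd36 and binding protein Fabp3 did not pass (-0.11 ± 0.09 and 0.04 ± 0.08, adjusted p = 0.432 and 0.781). In the list of the tricarboxylic acid cycle, ketone and branched chain amino acid oxidation 22 of 40 fell and 1 rose, with a median of -0.26, and 11 fell with total reads and 9 with a spread not tied to the mean level. On the authors' scaling 57.5% passed, beside the same 16.1% and 35.0%. Ivd, which oxidises the leucine breakdown product isovaleryl-CoA, had 188, 201, 191, 188 and 187 CPM in sham saline and 123, 149, 143, 132 and 126 CPM in TAC NRG1 and fell by 0.51 ± 0.08 (adjusted p = 9.01e-05). Aldh6a1, of valine breakdown, fell by 0.56 ± 0.09 and Sdha, the flavoprotein of succinate dehydrogenase, by 0.38 ± 0.08 (adjusted p = 9.51e-05 and 0.00107). The riser was Bdh1, which oxidises the ketone body beta-hydroxybutyrate, with 43.5, 72.1, 38.1, 59.04 and 48.9 CPM in sham saline and 90.8, 67.8, 106, 118 and 74.5 CPM in TAC NRG1 (0.81 ± 0.19, adjusted p = 0.00374). Of 72 nuclear genes of oxidative phosphorylation, which summed to 64550 to 68070 CPM in sham saline, 8 fell and none rose, with a median of -0.13. The 11.1% that passed is under the 16.1% of all genes and further under the 35.0% of genes with a mean of at least 100 CPM. The count of 8 was 16 without TAC NRG1 libraries 4 and 5, 4 without TAC NRG1 1, TAC NRG1 3 or sham saline 5, and 2 with total reads. Ndufs1, the largest complex I subunit, fell by 0.35 ± 0.07 (adjusted p = 0.00167). Of 7 mitochondrially encoded mRNAs 2 fell, mt-Nd2, whose call was lost in 9 of the 10 fits that left out 1 library, and mt-Nd5, by 0.59 ± 0.10 (adjusted p = 0.000283). These are 28.6% of that list, beside the same 16.1% and 35.0%.

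Of 20 regulators of energy metabolism 5 fell and 2 rose (3 and 1 without sham saline 3), 35% passing against 16.1% of all genes. Ppargc1a, the coactivator of mitochondrial biogenesis, had 67.04, 59.2, 78.3, 70.02 and 86.3 CPM in sham saline and 59.02, 43.2, 39.9, 28.6 and 30.3 CPM in TAC NRG1, lowest in libraries 4 and 5, and fell by 0.88 ± 0.15 (adjusted p = 0.000193). Perm1, a muscle coactivator of the same genes, fell by 0.56 ± 0.11 and Rxrg, a nuclear receptor, by 0.61 ± 0.11 (adjusted p = 0.00109 and 0.000334). Esrra, the estrogen-related receptor alpha, was at -0.13 ± 0.10 (adjusted p = 0.43). Glycolysis genes were split, with 10 of 25 higher and 5 lower, 6 higher and 7 lower without TAC NRG1 libraries 4 and 5, 6 higher and 4 lower without sham saline 2, and 12 higher and 3 lower with total reads. On the authors' scaling with all libraries 60% passed, against 16.1% of all genes. Pfkp, the platelet isoform of phosphofructokinase, had 29.7, 23.9, 21.2, 28.8 and 23.2 CPM in sham saline, 37.7 to 53.8 CPM in TAC saline and 59.6, 58.4, 82.9, 66.2 and 59.9 CPM in TAC NRG1 and rose by 1.37 ± 0.12 (adjusted p = 6.68e-08), and by 0.60 ± 0.12 against TAC saline (adjusted p = 0.0135). Ldha, which makes lactate, rose by 0.46 ± 0.08 and Hk1, a hexokinase, by 0.56 ± 0.11 (adjusted p = 0.000346 and 0.00076). Slc2a4, the insulin-responsive glucose transporter, fell by 0.34 ± 0.09 (adjusted p = 0.00849). Pfkfb2, which makes the activator of phosphofructokinase in heart, fell by 0.86 ± 0.18 (adjusted p = 0.002).

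Cytoskeletal genes rose broadly. Of 21 tested tubulin and cytoskeleton genes 17 rose and none fell, with a median of 0.64 and 81% passing against 16.1% of all genes. Tubb4b had 204, 159, 138, 159.7 and 192 CPM in sham saline and 375, 316, 389.8, 251 and 323 CPM in TAC NRG1 and rose by 0.95 ± 0.11 (adjusted p = 2.34e-06), and it was 0.60 ± 0.11 above TAC saline (adjusted p = 0.00613). Tubb2b and Tubb3 rose most of the tubulins, by 2.24 ± 0.56 and 2.15 ± 0.39 (adjusted p = 0.00696 and 0.000408), and Vim, the intermediate filament of mesenchymal cells, rose by 1.07 ± 0.16 (adjusted p = 4.27e-05). Reads of near-identical tubulin genes may be divided among copies in counting. Of the cytosolic chaperones, small heat shock proteins rose, Hspb7 by 0.75 ± 0.09, Hspb6 by 0.66 ± 0.08, Hspb1 by 0.53 ± 0.10 and Cryab by 0.45 ± 0.09 (adjusted p = 4.79e-06, 5.37e-06, 0.000839 and 0.00152). Hspb6 had 1052, 1113, 956, 1312 and 1166 CPM in sham saline and 1840, 1582, 1773, 1827 and 1798 CPM in TAC NRG1. In all, 5 of 21 cytosolic chaperone genes rose, the fifth being the J-domain cochaperone Dnajb4, and 1 fell, and the large chaperones Hspa8 and Hsp90ab1 were at 0.13 ± 0.08 and -0.08 ± 0.07 (adjusted p = 0.304 and 0.49). The 28.6% of that list that passed stood against 16.1% of all genes. Of 20 chaperones of the endoplasmic reticulum 7 rose and none fell, 35% passing against 16.1% of all genes. P4hb, a disulfide isomerase and subunit of collagen prolyl hydroxylase, had 171, 168, 139.6, 171 and 152 CPM in sham saline and 249.5, 239, 271, 265 and 258 CPM in TAC NRG1 and rose by 0.68 ± 0.09 (adjusted p = 1.15e-05), while Hspa5, the main folding chaperone of that compartment, was at 0.02 ± 0.09 (adjusted p = 0.927). In the integrated stress response list 4 of 17 rose and 1 fell (2 and 1 without TAC NRG1 3 or sham saline 1), with Psat1, of serine synthesis, at 1.46 ± 0.31 (adjusted p = 0.00191) and Atf4, the transcription factor of that response, at 0.12 ± 0.11 (adjusted p = 0.505). That list had 29.4% passing, against 16.1% of all genes. Psat1 had at most 2.51 CPM in sham saline, so it entered the test only through the constricted groups.

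Ribosomal protein genes rose in small steps that rest on a few libraries. Of 49 tested 13 rose and none fell, with a median of 0.17, but 3 rose without TAC NRG1 5, 5 without TAC NRG1 4 and 2 without both, and 27 rose with total reads as the only scaling. On the authors' scaling 26.5% passed, against 16.1% of all genes and 35.0% of genes with a mean of at least 100 CPM. Rpl3 was the exception, with 135, 119, 119, 117 and 132 CPM in sham saline and 243, 208, 262, 235 and 259 CPM in TAC NRG1, a rise of 0.95 ± 0.09 (adjusted p = 1.5e-07). Blood transcripts depended on the same libraries. Of 7 tested 6 rose, with a median of 0.93 and 85.7% passing against 16.1% of all genes. Over TAC saline 5 of the 7 passed, with a median of 0.97. Without TAC NRG1 libraries 4 and 5 the median against sham was 0.60 and limma called none, with 6 of the 7 at an unadjusted p under 0.05. Hba-a1, an alpha globin, had 71.04, 67.1, 85.3, 169.8 and 131 CPM in sham saline and 159, 155, 134, 289 and 274 CPM in TAC NRG1, so 3 of the treated libraries overlapped sham saline 4. It rose by 0.97 ± 0.22 (adjusted p = 0.00306, and 0.0558 without the 2 libraries). Reads of the near-identical globin genes may be divided among copies. The remaining lists moved little: 2 of 15 ubiquitin ligase and autophagy genes fell, among them Ulk1, the kinase that starts autophagy (-0.46 ± 0.09, adjusted p = 0.00108), and 1 of 19 circadian clock genes fell, with Per2 at 0.02 ± 0.30 and Arntl at -0.68 ± 0.42 (adjusted p = 0.977 and 0.305). These lists had 13.3% and 5.26% passing, against 16.1% of all genes. With limma none of the 4 tested Schwann cell and mesothelial markers passed, with 0 at an unadjusted p under 0.05. The only neutrophil or mast cell marker tested, Kit, fell with 3.18, 2.52, 0.382, 1.62 and 0.221 CPM in TAC NRG1 against 3.22, 3.83, 4.31, 3.51 and 3.74 CPM in sham saline (adjusted p = 0.0209, 0.0607 without TAC NRG1 3 and 0.0565 without TAC NRG1 5).

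Relative to TAC saline, 143 of the 11018 genes passed (1.3%), against the 16.1% that passed relative to sham. The 2 comparisons share the TAC NRG1 libraries. Syt12, of the synaptotagmin family of vesicle proteins, had 1.89, 2.51, 1.44, 2.29 and 1.95 CPM in sham saline, 2.35 to 4.45 CPM in TAC saline and 5.67, 7.92, 10.8, 12.8 and 10.8 CPM in TAC NRG1. It was 2.22 ± 0.28 above sham (adjusted p = 7.12e-06) and 1.54 ± 0.28 above TAC saline (adjusted p = 0.00472). Bcr, a serine/threonine kinase and GTPase regulator, was 1.54 ± 0.25 above sham and 1.32 ± 0.25 above TAC saline (adjusted p = 0.000146 and 0.0071), with 14.5, 15.6, 36.5, 15.1 and 16.6 CPM in TAC NRG1 and at most 9.67 CPM in sham. Slc26a6, an anion exchanger of the cardiomyocyte membrane, had 13.01, 9.36, 6.54, 7.78 and 8.83 CPM in sham saline, 5.93 to 8.62 CPM in TAC saline and 3.46, 3.57, 2.93, 5.34 and 1.55 CPM in TAC NRG1. It was lower by 1.50 ± 0.27 than in sham and by 1.22 ± 0.27 than in TAC saline (adjusted p = 0.000326 and 0.0197). Mest, an imprinted gene of growing tissue, had 14.8, 13.3, 12.6, 13.6 and 9.13 CPM in sham saline, 23.7 to 79.7 CPM in TAC saline and 14.5, 13.8, 8.53, 20.7 and 17.5 CPM in TAC NRG1. It was near sham in TAC NRG1 (0.20 ± 0.25, adjusted p = 0.655) and lower than in TAC saline by 1.53 ± 0.25 (adjusted p = 0.00151). Rnf213, a ubiquitin ligase that interferon induces, went below sham in TAC NRG1, from 17.2, 16.5, 16.1, 19.98 and 17.5 CPM to 13.4, 14.00, 12.1, 11.8 and 13.9 CPM, while TAC saline was at 20.3 to 34.03 CPM. Its fall of 0.42 ± 0.13 against sham was marginal (adjusted p = 0.0338, and up to 0.085 with 1 library left out), and that of 0.95 ± 0.13 against TAC saline was not (adjusted p = 0.000226).

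The treated libraries were close to each other for some genes and not for others, and the genes named here as examples were chosen after their values were seen. Of abundant genes past the threshold, Parm1, a mucin-like membrane protein, was one of the 5 that varied least, with 154, 160.0, 158, 154 and 149 CPM in TAC NRG1 against 112, 99.05, 116, 108 and 116 CPM in sham saline (a rise of 0.49 ± 0.10, adjusted p = 0.00161). In contrast, the mitochondrial ribosomal RNA mt-Rnr2 was spread widely and lowest in libraries 4 and 5, with 47660, 57530, 40470, 15650 and 13480 CPM in TAC NRG1, against 59340 to 72330 CPM in sham saline (-1.15 ± 0.27, adjusted p = 0.00509, and 0.0453 without them).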

How the data were processed

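Left ventricular RNA was taken up in Tri Reagent and sequenced from the 3′ end by BRB-seq, per the labels, which put all 15 libraries in batch 1. Per the submitters' processing notes the genome build was GRCm39. The sources used here name no aligner or read counter. The deposited values are log2 of the reads plus 0.5 times a factor per library, as the spacing of the authors' values shows. Undoing that factor gave whole reads, within 0.05, for 98.8% to 99.5% of values per library. CPM were obtained as 2 to the power of the deposited log2 value, over 1000. No libraries of a group were duplicates (chi-square per degree of freedom 2.27 to 12.1).

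A linear model per gene (limma 3.58.1, R 4.3.3, spread moderated along a mean trend) covered the log2 values of all 15 libraries and was tested on simulated data. Tests were two-sided with Benjamini-Hochberg adjustment over genes and a threshold of 0.05. A gene entered with 2.95 CPM or more, which is 10 reads for the median depth, in 5 or more libraries and a total of 15 reads, which kept 11018 of 15258 genes and left out 4240. In any list, a gene under that level in every sham library entered only through the constricted groups, which favours genes that are high there. The median SE of a log2 fold change was 0.159. Single values over libraries were compared by exact permutation.

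The comparison, the gene lists and the naming rule were chosen with earlier results of these data known. Named genes are, in each direction, the 10 with the largest log2 fold change among those that passed (at least 5 CPM, no overlap, predicted genes left out), up to 3 members of each list past the threshold, the genes past the threshold against both groups that differed most from TAC saline, and a set of known genes. Other list members named were chosen after their values were seen. The lists are counted against all genes with no set test. Alternatives covered scaling, weights, trend, groups fitted, filter, mitochondrial genes, replicate numbers, threshold, depth and leaving out each library, and leaving out TAC NRG1 libraries 4 and 5 together, and voom weights and a spread without a trend for the lists, were added after the data were seen. A few genes are not reported here. Promoter sequences are RefSeq's on GRCm38.p6, a build other than that of the files, and served for sequence only. Tables and figures used scipy 1.17.1, numpy 2.4.6, matplotlib 3.10.9, pandas 2.3.3 and Python 3.11.15.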

Additional observations from a re-analysis of the deposited data

Results flagged for a closer look

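Of 116 sets of 5 libraries examined (53 genes with printed values and 5 library measures, in sham saline and in TAC NRG1), 9 held a library far from the other 4, by a Dixon ratio above 0.71. Chance flags about 1 in 20 such sets, and genes measured in the same libraries are not independent. In TAC NRG1, library 3 was low for Kcnip2 at 49.3 CPM (others 89.9 to 98.4 CPM) and for Atp2a2 at 4364 CPM (others 4713 to 4835 CPM), and high for Bcr at 36.5 CPM (others 14.5 to 16.6 CPM). Library 5 was low for Adra1a, at 0.221 CPM, where no read was counted (others 2.87 to 3.95 CPM), and library 2 was low for Hspb6, at 1582 CPM (others 1773 to 1840 CPM). In sham saline, library 1 was high for Phlda1 at 85.0 CPM (others 51.5 to 57.3 CPM) and low for Stat3 at 67.3 CPM (others 80.0 to 85.1 CPM). Sham saline 3 was low for Col3a1 at 115.6 CPM (others 163 to 180.0 CPM), and sham saline 2 was high for Ivd at 201 CPM (others 187 to 191 CPM). Apart from Adra1a, each of these genes kept its call and its direction when any 1 library was left out.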

How the results depend on the processing

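The count of 1777 genes was 1781 with median ratio scaling, 1798 with total reads, 1615 with voom weights, 1752 with robust spread, 1278 without a trend, 1646 with only the 2 groups fitted, 1766 without a filter, 1583 at a mean of at least 10 CPM, 1744 without mitochondrial genes and 1345 with every library thinned to 2.02 M reads. At a threshold of 0.01 it was 849. Leaving out each library gave 1338 (without sham saline 3) to 1854 (without TAC NRG1 2). A fit with the replicate number as a replicate block called 1645 genes. Same-numbered libraries did not deviate together (correlations -0.046 to 0.035), so the values gave no sign of pairing by number. A pairing with little effect on expression would not show in them. The separation of 0.121 kept its p of 0.0079 (exact permutation) under every alternative run, at 0.106 to 0.148 with a library left out. The distance to sham of TAC NRG1 minus TAC saline ran from 0.033 to 0.078 with a library left out and did not pass under any alternative run. Among the 207 genes that the naming rule chose or the text names, none of the 175 that passed changed sign under the alternatives run on single genes, and 15 of the 32 that did not pass did. With 1 library left out the log2 fold change ran from -0.24 to 0.10 for Erbb2, -0.14 to 0.060 for Adrb1, -0.32 to 0.088 for Ccn1, -0.067 to 0.082 for Csf1r, -0.31 to 0.68 for Fos, -0.036 to 0.084 for Hspa5, -0.12 to 0.023 for Lmcd1, -0.23 to 0.46 for Mmp14, -0.011 to 0.27 for Myh11, -0.078 to 0.15 for Pdgfra, -0.077 to 0.020 for Pecam1, -0.19 to 0.18 for Per2 and -0.066 to 0.050 for Smad3. With total reads it turned to 0.033 for Adrb1, 0.083 for Csf1r, 0.0099 for Hsp90ab1, 0.035 for Lmcd1, 0.069 for Pecam1 and 0.087 for Smad3. At the thinned depth it turned to 0.066 for Erbb2 and 0.0078 for Smad3. Without TAC NRG1 libraries 4 and 5 it turned to 0.23 for Erbb2, -0.065 for Mest, 0.21 for Adrb1, -0.046 for Per2 and 0.0062 for Smad3. Over the fits leaving out 1 library, calls on these genes were lost 123 times and gained 1 time; with total reads 10 were lost, with only the 2 groups fitted 6, thinned 11, with the replicate block 8 and without TAC NRG1 libraries 4 and 5 together, an alternative chosen after seeing the data, 21. That last setting called 1361 genes in all. Of 76 list counts (higher and lower in each list), 21 moved by over 1.5 times without those 2 libraries and 19 with total reads. Depth limits genes under 10 CPM, where the median SE was 0.263.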

Other observations

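Genes outside the lists and the naming rule also moved. They were chosen after their values were seen, and none of what follows is a test of a pattern. The inhibitor of the mitochondrial ATP synthase, Atpif1, had 234, 238, 244, 214 and 239 CPM in sham saline libraries 1 to 5, 238 to 282 CPM in TAC saline and 432, 413, 417, 543 and 507 CPM in TAC NRG1 libraries 1 to 5, a rise of 0.98 ± 0.08 over sham (limma adjusted p = 2.14e-08) and of 0.82 ± 0.08 over TAC saline (adjusted p = 3.06e-06). Popdc2, a cyclic AMP-binding membrane protein of cardiomyocytes, had 712, 628, 592, 629.9 and 681 CPM in sham saline, 599.8 to 675 CPM in TAC saline and 888, 982, 977, 1034 and 1026 CPM in TAC NRG1 (0.60 ± 0.07 over sham and 0.61 ± 0.07 over TAC saline, adjusted p = 2.34e-06 and 2.04e-05). Ackr3, a scavenging chemokine receptor, fell by 0.73 ± 0.12 against sham and 0.83 ± 0.12 against TAC saline (adjusted p = 0.000159 and 0.000313). Collagen VI chains rose together, Col6a1 by 1.20 ± 0.14, Col6a2 by 1.31 ± 0.18 and Col6a3 by 1.36 ± 0.19 (adjusted p = 1.78e-06, 1.52e-05 and 1.61e-05). Uck2, of pyrimidine salvage, rose by 1.86 ± 0.21, and the membrane and Z-disc genes Ehd4 and Pdlim5 by 0.76 ± 0.08 and 0.84 ± 0.09 (adjusted p = 1.02e-06, 2.1e-07 and 9.74e-07).

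Ribosomal protein L3 has a muscle paralog, and the pair moved in opposite directions. Rpl3l had 251, 229, 214, 216 and 227 CPM in sham saline and 152, 132, 103, 151 and 154 CPM in TAC NRG1, a fall of 0.73 ± 0.11 (adjusted p = 8.53e-05), where Rpl3 rose by 0.95 ± 0.09. Rpl3l did not pass between TAC NRG1 and TAC saline (-0.07 ± 0.11, adjusted p = 0.809). Mhrt, a noncoding RNA transcribed antisense to Myh7, had 50.6, 51.8, 64.3, 53.2 and 45.3 CPM in sham saline, 33.8 to 56.4 CPM in TAC saline and 31.6, 35.2, 24.3, 21.6 and 12.6 CPM in TAC NRG1, and fell by 1.16 ± 0.19 against sham (adjusted p = 0.000161). Whether the counting used strand is not given in the sources used here, so reads of Mhrt and of overlapping myosin transcripts may be mixed. Lrtm1, a leucine-rich repeat membrane protein, fell by 1.15 ± 0.13, with 251, 234, 258, 280.2 and 277 CPM in sham saline and 125, 146, 84.2, 119 and 117 CPM in TAC NRG1 (adjusted p = 8.24e-07). Mylk4, a muscle myosin light chain kinase, fell by 1.12 ± 0.22, Nampt, which makes the NAD precursor nicotinamide mononucleotide, by 0.58 ± 0.09, and Hopx, a cofactor without DNA binding, by 0.73 ± 0.13 (adjusted p = 0.000913, 0.00011 and 0.000357).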
